A study of Rattus norvegicus with 4 samples.

Results

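The genes described here are the SMADs that carry the TGF-beta signal and the proteins that restrain it: Smad2, Smad3, Smad4, Smad7, Ski, Skil, Smurf1, Smurf2, Pmepa1 and Tgif1. They were chosen by gene symbol, and all 10 were found among the 23608 gene entries of the count table. The study cultured microvessels of wild-type rats, made of primary vascular cells from soft connective tissue under the skin, and sequenced 4 libraries. These were stiff matrix with A83-01, stiff matrix without it, soft matrix with A83-01, and soft matrix without it, with 1 library in each group. A83-01 blocks the kinases of the type I receptors for TGF-beta, activin and nodal. The study asked how microvessels, and pericytes on their way to myofibroblasts, respond to a stiff matrix and to this inhibitor. The labels give no stiffness, dose, treatment time or animal age, and they do not say whether libraries came from separate animals or cultures.

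TGF-beta binds a pair of receptor kinases on the cell surface, and the type I receptor phosphorylates SMAD2 and SMAD3. These join SMAD4, enter the nucleus and bind DNA together with partner factors. The signal induces its own brakes: SMAD7 occupies the receptor and brings the ubiquitin ligases SMURF1 and SMURF2 to it, SKI and SKIL (SnoN) hold SMAD complexes in a repressed state, PMEPA1 keeps SMAD2 and SMAD3 from the receptor, and TGIF1 is a homeodomain corepressor of SMAD2. In mural cells and fibroblasts this pathway is known for driving contractile and matrix genes.

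Of these genes, Pmepa1, Skil, Ski and Smad7 were more than 1.5-fold lower with A83-01 on both matrices. At 1.5-fold, 1360 of the 13634 genes compared were called lower on stiff matrix and 812 on soft. With libraries scaled by total counts alone, Smad7 fell short of 1.5-fold on both, at log2 ratios of −0.53 and −0.58. By the deposited FPKM it again fell short on both, and Ski did on stiff, at −0.58. The promoters of these 4 genes are shown because all were lower on both matrices. A second reason is that SMAD proteins recognise the short element GTCT, which is AGAC on the other strand. Each window runs from 250 bases before to 50 bases after the annotated start, 5′ to 3′ on the strand of the gene, from RefSeq assembly GRCr8, which is not the build of the counts. Capitals mark every GTCT or AGAC.
Pmepa1, chr3:182478600-182478899, minus strand: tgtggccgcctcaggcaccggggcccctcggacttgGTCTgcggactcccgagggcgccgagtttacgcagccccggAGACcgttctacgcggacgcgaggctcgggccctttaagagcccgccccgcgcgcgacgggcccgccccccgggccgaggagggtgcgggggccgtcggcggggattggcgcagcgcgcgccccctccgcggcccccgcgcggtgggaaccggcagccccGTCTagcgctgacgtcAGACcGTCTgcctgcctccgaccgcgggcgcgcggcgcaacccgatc
Skil, chr2:114203523-114203822, minus strand: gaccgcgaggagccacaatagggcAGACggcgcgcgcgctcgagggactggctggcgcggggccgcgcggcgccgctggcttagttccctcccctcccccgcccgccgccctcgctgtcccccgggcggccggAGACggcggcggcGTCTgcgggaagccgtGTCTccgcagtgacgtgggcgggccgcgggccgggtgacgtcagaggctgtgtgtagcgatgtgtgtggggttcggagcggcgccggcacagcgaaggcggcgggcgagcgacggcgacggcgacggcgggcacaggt
Smad7, chr18:71263258-71263557, plus strand: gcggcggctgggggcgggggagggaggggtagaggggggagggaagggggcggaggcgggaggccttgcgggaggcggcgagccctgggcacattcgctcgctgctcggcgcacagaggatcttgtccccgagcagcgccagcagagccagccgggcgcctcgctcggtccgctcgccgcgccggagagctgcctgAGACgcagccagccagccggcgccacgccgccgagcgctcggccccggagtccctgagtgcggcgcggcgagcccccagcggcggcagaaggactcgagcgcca
Ski, chr5:171064908-171065207, minus strand: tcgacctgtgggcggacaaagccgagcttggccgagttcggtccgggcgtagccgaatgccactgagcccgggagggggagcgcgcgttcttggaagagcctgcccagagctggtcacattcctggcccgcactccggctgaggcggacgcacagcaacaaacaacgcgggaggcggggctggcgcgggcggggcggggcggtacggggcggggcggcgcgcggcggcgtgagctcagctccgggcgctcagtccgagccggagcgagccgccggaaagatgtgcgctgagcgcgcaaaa
The window of Pmepa1 held 5 such elements and that of Skil 4, while Smad7 had 1 and Ski 0. Among the other genes with an entry, Smad4 had 3, Smad3 and Smurf2 had 1 each, and the 2 windows of Smad2 had 1 and 0. These elements are common in such short windows: 88.8% of 33469 rat promoter windows of this length held at least 1, and the mean was 2.29. The palindrome GTCTAGAC, which overlaps GTCT and AGAC, was in 0.197% of all windows and in 0 of these 4. Promoter entries existed for 8 of the 10 genes, all but Smurf1 and Tgif1.

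Depth was similar in the 4 libraries, from 32271844 to 33416200 total counts, and each of the 10 genes had between 201 and 9408 counts per library. Levels across libraries are given as CPM, which relates each count to the library total, after normalisation by the trimmed mean of M-values (TMM), with factors from 0.876 to 1.07. Levels of different genes are compared only as the deposited FPKM, which also divides by transcript length. Each group is 1 library, so no pair can be checked against replicates, and the 95% intervals in parentheses cover counting error only. A pair of libraries was called apart at 2-fold when that interval also excluded equality. The 8 endothelial and 7 mural markers listed for the check of the cell label had counts in all 4 libraries, with summed levels of 1368 to 2387 CPM and 1971 to 3904 CPM. The 5 fibroblast markers measured here summed to 6288 CPM in stiff with A83-01, 2651 CPM in stiff, 24100 CPM in soft with A83-01 and 13929 CPM in soft, and the collagen-binding proteoglycan gene Dcn was the most abundant of them. The 7 leukocyte and macrophage markers summed to 66.2 to 108 CPM, and Cd74 was at 0 in stiff. In bulk RNA, fewer cells of a type and less RNA per cell cannot be told apart.

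**Figure D1:**
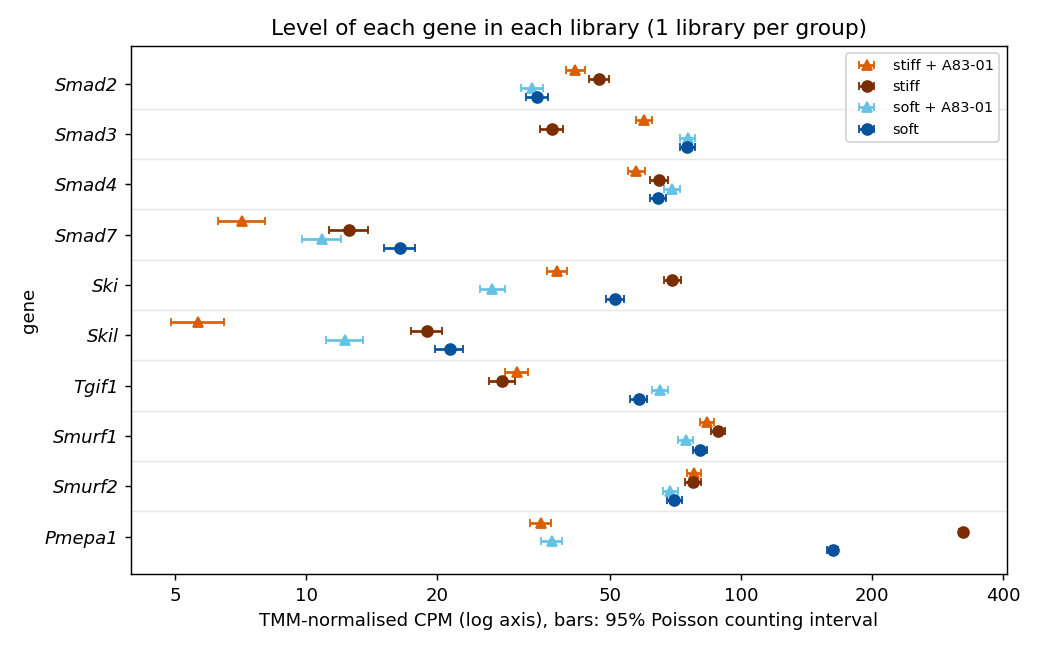
Level of each of the 10 genes (rows) as TMM-normalised CPM on a log axis in each library, with 1 point per library and bars for the 95% Poisson counting interval. Triangles are libraries with A83-01 and circles those without it. Pmepa1 spans 34.6 to 324 CPM, while Smurf1 and Smurf2 stay between 68.8 and 88.5 CPM.

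Per transcript length, Pmepa1 was the most abundant of the 10 genes in both libraries without inhibitor, at 137 FPKM in stiff and 81.4 FPKM in soft. With A83-01 it stood at 18.02 FPKM on stiff and 18.3 FPKM on soft, below Smad4 and Tgif1 in both of these libraries. Smad7 had the lowest FPKM of the 10 in every library, from 1.43 to 3.17. Smad4, the partner shared by all receptor-activated SMADs, stood above Smad2, Smad3 and Smad7 in each library, at 22.3 to 28.1 FPKM. Smad1, which is not among the 10 genes, was higher than Smad4 in stiff with A83-01, at 38.7 against 24.3 FPKM. Among the genes kept by the expression minimum, the FPKM of Pmepa1 stood at the percentile 97.2 in stiff and 94.7 in soft. With the inhibitor its percentiles were 73.7 on stiff and 75.2 on soft. Several neighbours in the order lay close, such as Smad2 and Ski, both at 13.7 FPKM in stiff with A83-01. The spread between replicate libraries that would separate such neighbours is not known here.

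The first comparison asks what A83-01 did on each matrix. Pmepa1, which encodes the membrane protein that holds back SMAD2 and SMAD3, had 34.6 CPM in stiff with A83-01 and 324 CPM in stiff. It had 36.7 CPM in soft with A83-01 and 162 CPM in soft. Its level was thus 9.35-fold lower with the inhibitor on stiff matrix (8.81 to 9.93) and 4.42-fold lower on soft matrix (4.16 to 4.71). Both untreated libraries were high and both treated ones low.

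The SKI proteins followed in the same direction. Skil, the gene of the SMAD corepressor SnoN, had 5.64 CPM in stiff with A83-01 and 18.9 CPM in stiff, against 12.3 CPM in soft with A83-01 and 21.4 CPM in soft. It was 3.36-fold lower with the inhibitor on stiff (2.85 to 3.96) and 1.74-fold lower on soft (1.54 to 1.97). The lowest of its 4 libraries was stiff with A83-01. Ski, whose product binds the same SMAD complexes, had 37.8 CPM in stiff with A83-01 and 69.5 CPM in stiff, and 26.8 CPM in soft with A83-01 and 51.4 CPM in soft. It was 1.84-fold lower on stiff (1.72 to 1.97) and 1.92-fold lower on soft (1.77 to 2.08), so both treated libraries lay below both untreated ones.

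Smad7, the inhibitory SMAD, had 7.13 CPM in stiff with A83-01 and 12.5 CPM in stiff, and 10.9 CPM in soft with A83-01 and 16.4 CPM in soft. With the inhibitor it was 1.76-fold lower on stiff (1.49 to 2.07) and 1.51-fold lower on soft (1.32 to 1.73). The treated library was the lower one on each matrix, and in TMM-normalised CPM both treated libraries lay below both untreated ones. That last order depends on the scaling. Soft with A83-01 and stiff had 364 counts each, and by deposited FPKM they stood at 2.09 and 2.05.

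The signal-carrying SMADs differed little by comparison. Smad2, a substrate of the type I receptor, had 41.6 CPM in stiff with A83-01 and 47.1 CPM in stiff, and 33.1 CPM in soft with A83-01 and 34.0 CPM in soft. The ratio with over without inhibitor was 0.883 (0.820 to 0.951) on stiff and 0.972 (0.894 to 1.06) on soft. Smad4 had 57.5, 64.7, 69.4 and 64.3 CPM in stiff with A83-01, stiff, soft with A83-01 and soft, with ratios of 0.887 (0.833 to 0.945) on stiff and 1.08 (1.02 to 1.14) on soft. Smad3, the other receptor substrate, was the exception on stiff matrix. It had 59.9 CPM in stiff with A83-01 and 36.7 CPM in stiff, 1.63-fold higher with the inhibitor (1.51 to 1.76). In soft with A83-01 and in soft it had 75.4 and 75.2 CPM, a ratio of 1.00 (0.948 to 1.06).

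The ubiquitin ligase genes were nearly flat. Smurf1 had 83.6 CPM in stiff with A83-01, 88.5 CPM in stiff, 74.7 CPM in soft with A83-01 and 80.6 CPM in soft. Smurf2 had 78.0, 77.6, 68.8 and 70.3 CPM in the same libraries. Their ratios with over without inhibitor lay between 0.926 and 1.01. Tgif1 had 30.5 CPM in stiff with A83-01 and 28.2 CPM in stiff, and 65.2 CPM in soft with A83-01 and 58.1 CPM in soft. For this corepressor gene the ratios were 1.08 (0.986 to 1.18) on stiff and 1.12 (1.06 to 1.19) on soft.

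**Figure D2:**
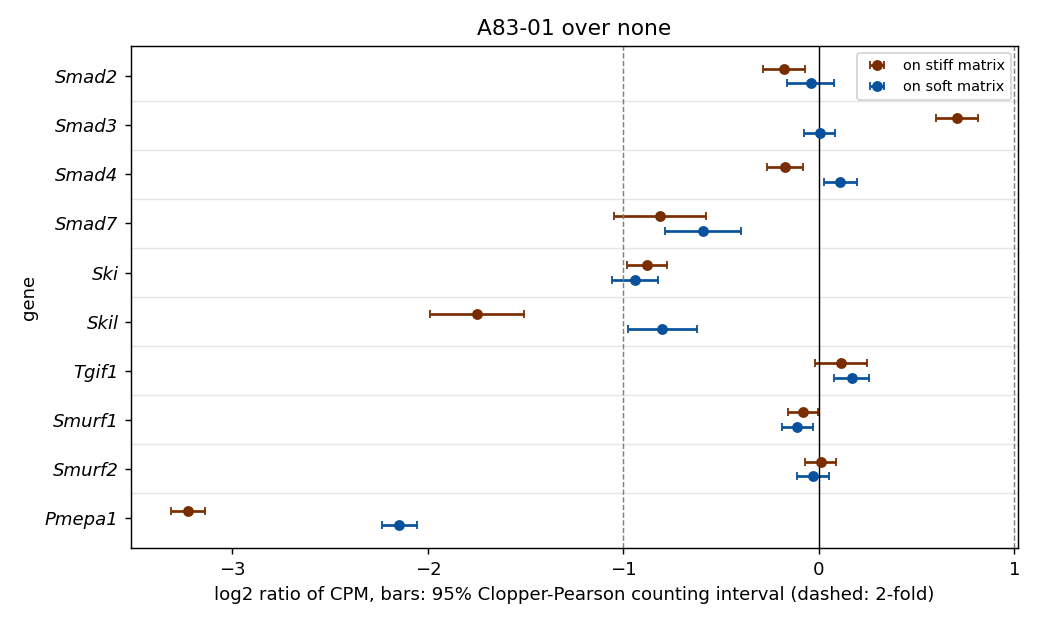
Log2 ratio of CPM with over without A83-01 for each gene (rows), on stiff and on soft matrix, with bars for the 95% Clopper-Pearson counting interval and dashed lines at 2-fold. Pmepa1, Skil, Ski and Smad7 lie left of 0 on both matrices, and Smad3 lies right of 0 on stiff matrix.

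At 2-fold, 2 of the 10 genes, Pmepa1 and Skil, were lower with A83-01 on stiff, where 4.47% of the 13634 genes compared were lower. On soft, Pmepa1 alone was lower, against 2.44% of all genes. None of the 10 was 2-fold higher on either matrix, where the shares of all genes were 7.80% on stiff and 2.18% on soft. In either direction, 12.3% of all genes were apart on stiff and 4.61% on soft. The median log2 ratio of the 10 genes was −0.18 on stiff and −0.08 on soft, beside 0.02 and −0.00 over all genes compared. Scaling by total counts alone raised every log2 ratio on stiff by 0.28 and turned the split of all genes there to 1667 higher and 392 lower, in place of 1064 and 609. Under it, Smad2, Smad4 and Smurf1 had log2 ratios above 0 on stiff, and Pmepa1, Skil, Ski and Smad7 remained below 0.

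The inhibitor was tested over all 4 libraries, 2 against 2, in a model that also held stiffness and kept 1 residual degree of freedom. The quasi-likelihood test of edgeR, with p-values adjusted over all genes by Benjamini and Hochberg's method, called 0 of the 10, and 0.0440% of all genes. Unadjusted, 4 of the 10 had p of at most 0.05, all of them lower, and 13.3% of all genes did. DESeq2's Wald test called 3 of the 10 and 3.40% of all genes, and the quasi-likelihood test with total-count scaling 3 of the 10 and 6.12% of all genes. Those 3 were Pmepa1, Skil and Ski both times, and limma-voom called 0 of the 10 and 0.0220% of all genes. Pmepa1 had a log2 difference of −2.69 (SE 0.300, adjusted p = 0.101 in edgeR's quasi-likelihood test). For Ski it was −0.91 (SE 0.129, adjusted p = 0.111 in edgeR), for Skil −1.26 (SE 0.272) and for Smad7 −0.70 (SE 0.174). A response that depends on the matrix counts as spread in this model, and its p-values reflect how these libraries vary, which may be technical. Both treated libraries also had more mitochondrially encoded counts, 5.59% against 3.86% on stiff and 6.35% against 4.72% on soft, and a higher fibroblast marker sum. That sum was higher through Dcn: the other 4 markers summed to 1009 CPM in stiff with A83-01 and 1209 CPM in stiff, and to 2145 CPM in soft with A83-01 and 2409 CPM in soft. With the treated library first, the endothelial marker sum was 2387 and 1368 CPM on stiff, and 1738 and 1713 CPM on soft. Of the endothelial markers, Vwf alone was lower with A83-01, on both matrices. The mural sum was 3904 and 3186 CPM on stiff, and 1971 and 2516 CPM on soft. Mural markers shared no direction on either matrix. The part of the mitochondrial share and of all these markers in the differences was not tested.

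The size of the inhibitor response was compared between the matrices. The log2 response of Pmepa1 was lower by 1.08 on stiff than on soft, a difference of −1.08 (−1.20 to −0.96), and it was the sole one of the 10 past 2-fold, where 3.20% of all genes were past it in this direction, 6.26% in the other and 9.46% in either. Skil stood just short of 2-fold, with a difference of −0.94 (−1.23 to −0.65). For Smad3 the difference was 0.70 (0.57 to 0.83). Ski, Smurf1, Smurf2 and Tgif1 had differences between −0.06 and 0.06, with intervals that included 0. Total-count scaling moved these too, for example to 0.22 for Tgif1. These differences are the residual of the additive model and were not tested. With total-count scaling or the deposited FPKM the difference of Pmepa1 was −0.81 or −0.77, under 2-fold in both cases.

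The second comparison asks how the same genes differed between the matrices. Tgif1 was lower on stiff matrix with and without the inhibitor. It had 30.5 and 28.2 CPM in the stiff libraries with and without A83-01, against 65.2 and 58.1 CPM in the soft ones, so both stiff libraries lay below both soft ones. It was 2.14-fold lower with A83-01 in both libraries (1.99 to 2.31) and 2.06-fold lower without it (1.90 to 2.24). Smad3 was 1.26-fold lower on stiff with A83-01 (1.19 to 1.33) and 2.05-fold lower without it (1.90 to 2.20), and stiff without inhibitor was the lowest of its 4 libraries. Skil was 2.18-fold lower on stiff with A83-01 (1.83 to 2.59) and 1.13-fold lower without it (1.01 to 1.26).

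Pmepa1 behaved differently. Without inhibitor it was 1.99-fold higher on stiff (1.93 to 2.06), just under the 2-fold mark, and with A83-01 in both libraries the ratio of stiff to soft was 0.944 (0.871 to 1.02). Ski was higher on stiff in both pairs, 1.41-fold with A83-01 (1.30 to 1.54) and 1.35-fold without it (1.27 to 1.44). Smad2 was 1.26-fold higher with A83-01 (1.16 to 1.36) and 1.38-fold higher without it (1.28 to 1.499). Smad7 was lower on stiff, 1.52-fold with A83-01 (1.30 to 1.80) and 1.31-fold without it (1.15 to 1.499). The remaining genes, Smad4, Smurf1 and Smurf2, had ratios of stiff to soft between 0.828 and 1.13.

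**Figure D3:**
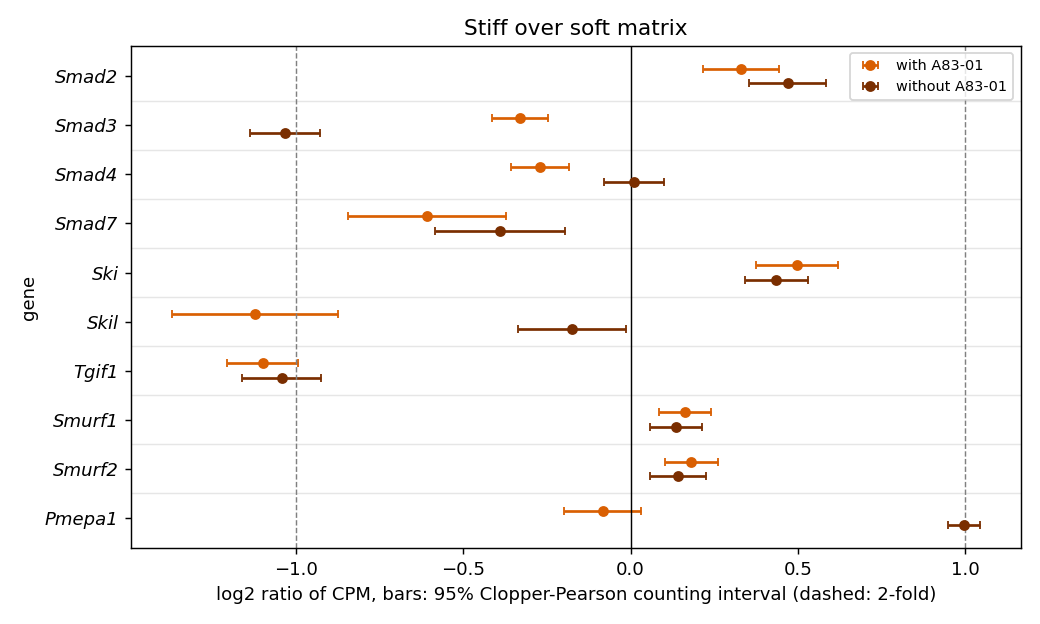
Log2 ratio of CPM on stiff over soft matrix for each gene (rows), with and without A83-01, with bars for the 95% Clopper-Pearson counting interval and dashed lines at 2-fold. Tgif1 lies near −1 in both pairs, Smad3 reaches −1.03 without the inhibitor alone, and Pmepa1 stands at 1.00 without it and −0.08 with it.

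At 2-fold, Skil and Tgif1 were lower on stiff with A83-01, 2 of the 10, against 6.72% of all genes. Without inhibitor Smad3 and Tgif1 were lower, again 2 of the 10, against 8.58% of all genes. None of the 10 was 2-fold higher, where 6.88% of all genes were with A83-01 and 5.33% without it. With DESeq2's size factors Pmepa1 passed the mark without inhibitor, at a log2 ratio of 1.01. In either direction the shares were 13.6% and 13.9%. Total-count scaling lowered each log2 ratio without inhibitor by 0.23 and gave 522 genes higher and 1613 lower, in place of 727 and 1170. In the additive model over all 4 libraries, 1 of the 10 passed: Tgif1 fell by 1.07 on the log2 scale on stiff matrix (SE 0.129, adjusted p = 0.0235 in edgeR), where 3.29% of all genes fell and 5.64% were called in either direction. Smad3 had a log2 difference of −0.68 (SE 0.203, adjusted p = 0.131 in edgeR), Ski of 0.47 (SE 0.128) and Smad2 of 0.40 (SE 0.135). None of these 3 passed. Tgif1 did not pass without the inhibitor in the model, with an adjusted p of 0.0792 in edgeR, and its adjusted p ranged from 0.000183 to 0.0792 over the 9 alternatives. The fibroblast marker sum was also lower on stiff matrix, 6288 against 24100 CPM with A83-01 and 2651 against 13929 CPM without it. Without Dcn it was 1009 against 2145 CPM and 1209 against 2409 CPM, and 2 of the 5 markers, Fbln1 and Mfap5, were higher on stiff in both pairs. The mural sum was higher on stiff matrix, 3904 against 1971 CPM and 3186 against 2516 CPM. The endothelial sum was higher on stiff with A83-01, 2387 against 1738 CPM, and lower without it, 1368 against 1713 CPM. Their part in these differences was not tested, and the codes in the labels differ in form between stiff and soft libraries, so a separate handling of each matrix and its stiffness cannot be told apart.

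Within a library, the ratio of Smad3 to Smad2 does not depend on the scaling between libraries. On the FPKM scale it was 0.749 (0.701 to 0.801) in stiff with A83-01 and 0.404 (0.373 to 0.438) in stiff. It was 1.18 (1.10 to 1.27) in soft with A83-01 and 1.15 (1.07 to 1.23) in soft. By FPKM, Smad2 thus stood above Smad3 on stiff matrix and below it on soft matrix, and the highest ratio was 2.92 times the lowest. In counts, not scaled for length, Smad3 was above Smad2 in stiff with A83-01, at a ratio of 1.44.

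Other genes of the pathway were taken from a list of 57, of which 54 reached the expression minimum. With A83-01, 10 of them were 2-fold lower and 2 higher on stiff, where 4.47% of all genes were lower and 7.80% higher. On soft 6 were lower and 0 higher, where 2.44% of all genes were lower and 2.18% higher. Of the 16 induced targets on the list, 9 were lower on stiff and 6 on soft, with median log2 ratios of −1.11 and −0.69. The matrix protein gene Tgfbi had 37.8 CPM in stiff with A83-01 and 591 CPM in stiff, and 16.8 CPM in soft with A83-01 and 34.8 CPM in soft. The connective tissue growth factor gene Ctgf had 234 and 879 CPM on stiff and 14.9 and 55.4 CPM on soft, with the treated library first. Its log2 ratio was −1.91 on stiff and −1.89 on soft, between those of Skil and Pmepa1 on each matrix.

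Receptor genes had no common direction with A83-01. Tgfbr1, a type I receptor that A83-01 inhibits, had 17.6 CPM in stiff with A83-01, 21.1 CPM in stiff, 20.3 CPM in soft with A83-01 and 21.4 CPM in soft. Tgfbr2, the type II receptor gene, was higher by 1.03 on the log2 scale on stiff and 0.94 on soft, and the co-receptor gene Tgfbr3 by 1.79 and 0.59, both past 2-fold on stiff but not on soft. The receptor gene Acvrl1 had log2 ratios of −0.25 and −0.32, and the co-receptor gene Eng 0.15 and −0.20. Both were added after their values were seen. Ldlrad4, the paralog of Pmepa1, had 17.1 CPM in stiff with A83-01 and 28.8 CPM in stiff, and 7.46 CPM in soft with A83-01 and 14.3 CPM in soft. Its log2 ratios with the inhibitor, −0.75 on stiff and −0.93 on soft, had the direction of Pmepa1 and a smaller size. Smad6, the other inhibitory SMAD, had 5.55, 7.16, 8.83 and 10.2 CPM in stiff with A83-01, stiff, soft with A83-01 and soft. The SMADs of the BMP branch, Smad1 and Smad5, had log2 ratios of 0.59 and 0.10 on stiff and 0.06 and 0.12 on soft, while Smad9 had 4 to 22 counts per library. Among 10 ubiquitin ligase, deubiquitinase and phosphatase genes none was 2-fold apart in any of the 4 pairs, in which 4.61% to 13.9% of all genes were.

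Between the matrices, the additive quasi-likelihood test called 5 of the 54 pathway genes higher and 4 lower on stiff, beside 2.35% and 3.29% of all genes. Those that rose were Tgfb2, Tgfb3, Ctgf, Tgfb1i1 and Ldlrad4, and those that fell were Inhbb, Dab2, Il11 and Ltbp2. The ligand gene Tgfb3 had 236 CPM in stiff with A83-01 and 393 CPM in stiff, against 9.10 CPM in soft with A83-01 and 11.8 CPM in soft. Ldlrad4 was 1.19 higher on the log2 scale with A83-01 and 1.01 higher without it. Dab2, an adaptor of the receptors and SMADs, stood 1.38 and 1.58 lower. For the inhibitor the same test called 0 of the 54.

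**Figure D4:**
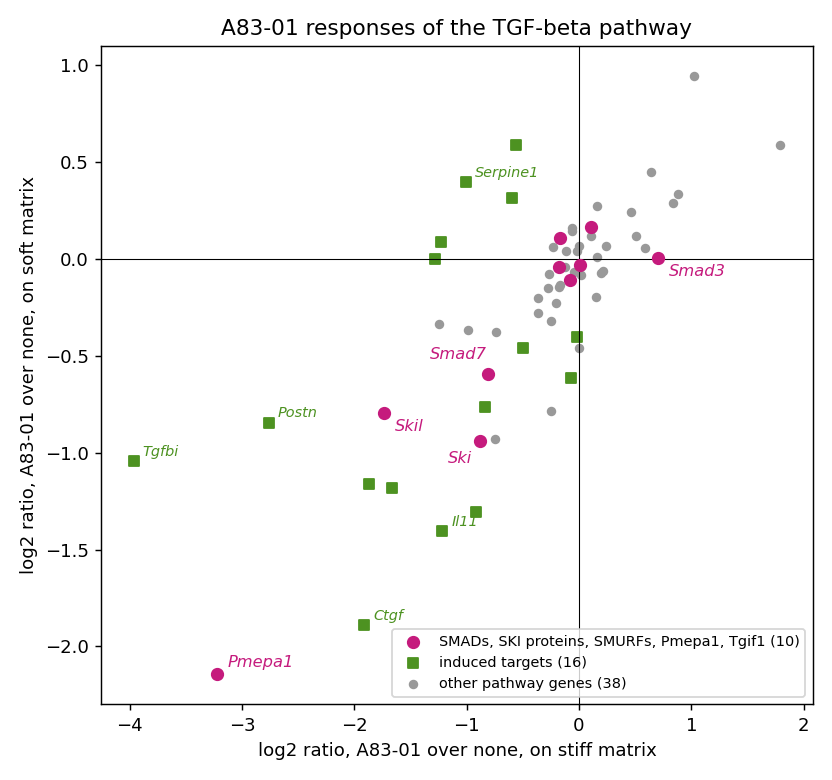
Log2 ratio with over without A83-01 on stiff matrix (x axis) and on soft matrix (y axis) for the 10 genes described here, the 16 induced targets and the 38 other pathway genes that reached the expression minimum. The 2 axes share no library. Pmepa1 lies lowest on the soft axis, and Skil, Ski and Smad7 lie with the induced targets at the lower left.

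Among the 10 genes, Smurf1 and Smurf2 had the most similar profiles, with a distance of 0.09 between log2 CPM values centred on the mean of the 4 libraries. Skil and Smad7 were 0.69 apart, and Smad3 and Tgif1 0.58 apart. Pmepa1 and Skil had the widest ranges, so the nearest profiles among 13063 other genes were sought for both. For Pmepa1 they included Kif5c, the unnamed transcript MSTRG.1985, Ppp1r9a and Grem1, at distances of 0.55 to 0.61. Of these, the kinesin gene Kif5c had 2.55 CPM in stiff with A83-01, 37.3 CPM in stiff, 3.85 CPM in soft with A83-01 and 19.96 CPM in soft. For Skil they were Tsku, Col16a1, Cyp27b1, Fap and Hhipl1, at 0.15 to 0.23. Its closest, Tsku, had 25.9 CPM in stiff with A83-01, 94.3 CPM in stiff, 59.5 CPM in soft with A83-01 and 112 CPM in soft. With 4 libraries such a distance describes these profiles only.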

How the data were processed

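The mRNA for the 4 libraries was taken with oligo(dT) beads, primed with random hexamers and read in pairs, per the labels' protocols. No molecular identifiers or strand marking are mentioned there. The deposited table holds raw whole-number counts per gene. A second deposited table holds FPKM, made by the authors. Per the submitters' processing notes, tools included HISAT2 and edgeR, and the build was Rnor_6.0. The counting program and annotation are not given in these sources. Counts and FPKM implied one length within 5% for 93.4% of 10648 well-covered genes.

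The 13634 of 23608 entries that reached 1 CPM after TMM in any library were kept. Software was edgeR 4.0.16, DESeq2 1.42.0 and limma 3.58.1 in R 4.3.3. Pairs were compared by log2 ratio with a prior count of 2 and the 95% conditional binomial (Clopper-Pearson) interval, and the difference of responses by the delta method. The additive model used the quasi-likelihood test of edgeR at a Benjamini-Hochberg adjusted p of 0.05. On simulated data, the intervals were tried with counting error alone. The additive test was tried there with the same spread for every gene and no effect of the other factor. Neither setting held a response that depends on the matrix. The named pathway genes were those past this threshold, up to 4 others per subgroup with the largest inhibitor ratio on stiff, the other SMADs and Tgfbr1. For the 2 genes of widest range, the 5 nearest profiles were named, except 1 gene that is not reported here. Alternatives covered scaling, filter, prior count, fold, model and test. The genes, lists and rules were chosen with earlier results of these data known.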

Additional observations from a re-analysis of the deposited data

Results flagged for a closer look

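Smad4 was 0.17 lower on the log2 scale with A83-01 on stiff matrix and 0.11 higher on soft matrix, both beyond counting error, a difference of −0.28 that was not tested. With total-count scaling it was 0.11 higher on stiff and 0.12 higher on soft, so the opposite directions depend on the scaling. Among the other pathway genes, the matricellular gene Postn was 0.68 lower on stiff than on soft matrix with A83-01 and 1.24 higher without it, a difference of −1.92, and the ligand gene Tgfb1 was 0.25 lower and 0.37 higher, a difference of −0.62. Neither difference was tested.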

How the results depend on the processing

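Named numbers of calls refer to the 10 genes unless stated. Calling at 1.5-fold gave 5 on stiff and 4 on soft for A83-01, in place of 2 and 1. Of all 13634 genes, it called 2048 higher and 1360 lower on stiff, and 767 and 812 on soft. For the difference of responses, 1.5-fold gave 3 in place of 1. That difference had 0 with total-count scaling and 0 with the deposited FPKM. In the additive model, A83-01 had 3 with total-count scaling and 3 with DESeq2's Wald test, in place of 0. Stiffness had 2 with total-count scaling, Smad3 joining Tgif1, and 0 without the inhibitor in the model, in place of 1. With total-count scaling the log2 inhibitor effects of Smad2, Smad4, Smurf1 and Smurf2 in that model turned to 0.037, 0.12, 0.051 and 0.14, all far from the threshold. The cause was not tested.

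Over all genes, the additive inhibitor test called 0 higher and 6 lower, against 563 and 271 with total counts, 223 and 240 with DESeq2, 10 and 17 without a filter, and 18 and 28 at an adjusted p of 0.1. It called 0 lower with DESeq2's size factors, with upper-quartile scaling and without stiffness in the model, 3 with limma-voom and 2 with the stricter filter. The stiffness test called 320 higher and 449 lower, against 621 and 1136 with total counts, 568 and 738 with DESeq2, 13 and 17 without the inhibitor in the model, and 724 and 957 at 0.1. The difference of responses was past 2-fold for 854 genes higher and 436 lower, against 1496 and 266 with total counts and 1440 and 252 by FPKM. By FPKM, 358 genes were lower with A83-01 on stiff in place of 609, and 484 higher on stiff without inhibitor in place of 727. Without a filter, 506 were higher and 558 lower with A83-01 on soft, in place of 297 and 332. At 1.5-fold, counts of all genes grew by more than 1.5 times in every comparison of a pair.

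Pmepa1, Skil, Ski and Smad7 were below 0 in both inhibitor pairs under each of the 7 alternatives, and Tgif1 in both stiffness pairs. Among these alternatives, leaving out the filter and calling at 1.5-fold cannot alter a log2 ratio. A change of count scaling shifts all genes of a pair by nearly the same amount. No paired analysis was possible because no group has a second library with a number to pair by. The additive model itself compares treated with untreated within each matrix. Leaving out a library leaves no residual degree of freedom. Depth limits Skil and Smad7 most, with 201 to 715 counts.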
